A study of Homo sapiens with 28 samples.

Results

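Of the 31278 regions bound by Flag-tagged wild-type (WT) ZHX2 in hypoxic T47D cells on chromosomes 1 to 22 and X, 3511 (11.2%) were absent from the list of the PA mutant and overlapped a peak of endogenous ZHX2 in hypoxia. These regions were chosen by their peak calls: no shared base with any region of the PA Flag list, and at least 1 base shared with a hypoxia ZHX2 peak. They are called WT-only ZHX2 regions here. They were set against the WT regions also present in the PA list, 15163 in all, of which 10537 overlapped a hypoxia ZHX2 peak and are called PA-shared ZHX2 regions. Absence from the PA list is a missing call. The Flag lists hold positions without heights, so weaker binding of the mutant cannot be told apart from no binding.

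T47D is an established luminal breast cancer line, and hypoxia H3K27ac lay at the starts of 20 of 20 luminal genes, 3 of 11 basal or myoepithelial genes and 5 of 16 immune or stromal genes. Chromatin immunoprecipitation and sequencing was done in hypoxia with Flag antibody on PA ZHX2 and on WT ZHX2, and in hypoxia and in normoxia with antibodies to endogenous ZHX2, CTCF and acetylated lysine 27 of histone H3 (H3K27ac). Each of these 8 groups had 2 samples and 1 deposited list, 4 further Flag-titled samples carried no antibody, and no value per sample was at hand. Per the labels, lentivirus was used with antibiotic selection and hypoxia was kept in a workstation. The labels used here do not say which cells carried a vector, what change PA denotes, which promoter drove the tagged protein, or the oxygen level and time. Every comparison is one between peaks of single lists, with no replicate check. Intervals are 95% Wilson intervals over regions and cover counting error alone.

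ZHX2 is a nuclear protein with zinc fingers and homeodomains, known as a substrate of the VHL ubiquitin ligase, the oxygen-dependent regulator of the HIF transcription factors. CTCF binds DNA through its zinc fingers and, with cohesin, holds the anchors of chromatin loops. H3K27ac marks active promoters and enhancers.

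Promoters of 4 genes are shown first, because they are the genes, among those at the WT-only ZHX2 regions of highest ZHX2 fold, whose RefSeq promoter window (GRCh38.p14, 250 bases before to 50 after the start) such a region overlapped. WDR90, a centriole protein, has the window chr16:649115-649414 on the plus strand, and the WT-only region covered all 300 bases. PDE4A, a cyclic AMP phosphodiesterase, has the window chr19:10416523-10416822 on the plus strand, with 160 bases covered. SIK3, a salt-inducible kinase, has the window chr11:117098379-117098678 on the minus strand, where 2 WT-only regions covered 62 bases together and the start itself lay between them. UNC13A, a synaptic vesicle priming factor, has the window chr19:17688305-17688604 on the minus strand, with 64 bases covered. Capitals mark ACGTG or GCGTG, the core letters recognised by HIF, and AGGGGGC, a common form of the core of the CTCF motif, on either strand.
WDR90: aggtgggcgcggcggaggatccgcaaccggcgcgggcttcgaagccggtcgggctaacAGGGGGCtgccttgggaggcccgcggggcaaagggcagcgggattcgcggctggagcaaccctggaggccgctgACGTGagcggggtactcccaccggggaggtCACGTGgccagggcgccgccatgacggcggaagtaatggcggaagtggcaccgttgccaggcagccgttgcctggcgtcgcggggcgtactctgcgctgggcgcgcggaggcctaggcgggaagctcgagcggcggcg
PDE4A: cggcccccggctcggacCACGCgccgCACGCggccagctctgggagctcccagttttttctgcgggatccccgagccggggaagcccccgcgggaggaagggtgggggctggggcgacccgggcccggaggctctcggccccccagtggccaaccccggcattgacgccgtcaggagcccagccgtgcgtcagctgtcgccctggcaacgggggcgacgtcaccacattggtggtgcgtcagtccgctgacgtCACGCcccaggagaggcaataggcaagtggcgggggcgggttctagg
SIK3: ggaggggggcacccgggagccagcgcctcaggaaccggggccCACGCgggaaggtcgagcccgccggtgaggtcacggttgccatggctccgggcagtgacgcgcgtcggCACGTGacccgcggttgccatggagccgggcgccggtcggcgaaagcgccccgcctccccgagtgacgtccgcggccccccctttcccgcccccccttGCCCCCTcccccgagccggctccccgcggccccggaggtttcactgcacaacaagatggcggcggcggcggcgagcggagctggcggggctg
UNC13A: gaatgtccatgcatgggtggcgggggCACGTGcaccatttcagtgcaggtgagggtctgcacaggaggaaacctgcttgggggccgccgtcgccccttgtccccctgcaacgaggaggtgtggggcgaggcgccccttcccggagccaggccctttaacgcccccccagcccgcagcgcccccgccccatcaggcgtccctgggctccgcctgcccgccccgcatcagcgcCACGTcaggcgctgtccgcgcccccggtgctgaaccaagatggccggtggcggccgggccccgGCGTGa

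Counted on both strands, the HIF core letters occurred 3 times in WDR90, 3 times in PDE4A, 3 times in SIK3 and 4 times in UNC13A, a palindrome counting on each strand. The CTCF core letters occurred 1 time in WDR90, 1 time in SIK3 and 0 times in the other two. Across the 1040 promoter windows of 898 protein-coding genes that a WT-only ZHX2 region overlapped, 63.7% held ACGTG or GCGTG, against 67.1% of the 9073 windows at PA-shared ZHX2 regions and 54.7% of all 22132 windows. AGGGGGC stood in 26.6% of the windows at WT-only ZHX2 regions, in 20.4% at PA-shared ZHX2 regions and in 17.5% of all windows. The median GC content was 70.0%, 66.7% and 62.3% in the same order, and the median number of CpG dinucleotides per window was 30, 28 and 21. All these values are over whole windows, of which 160 bases were covered in PDE4A, 62 in SIK3 and 64 in UNC13A. Some marked letters there lie outside the WT-only regions, among them the CTCF core letters of SIK3. These are letter matches and were not tested.

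The regions of highest endogenous ZHX2 signal lay at genes of varied function. Among the 1402 WT-only ZHX2 regions at a protein-coding gene start, the highest fold of the authors over background was 23.6, at INSM1, a zinc finger transcription factor of neuroendocrine cells (chr20:20368475-20369798). WDR90 followed with 19.1 and ZIC5, a zinc finger transcription factor of neural development, with 18.2. SHLD1, a subunit of the shieldin complex of DNA repair, had 17.8, PDE4A 14.9, and KLF13, a Krüppel-like transcription factor, 13.1. LRRC24 had 11.8, and GRIN1, a subunit of NMDA glutamate receptors, had 11.0. APH1B, a subunit of gamma-secretase, had 10.5, and 1 ZHX2 peak of fold 10.4 touched both WT-only regions at SIK3. The list of 15 ended with UNC13A at 10.4, SOX18, a transcription factor of endothelial cells, at 10.2, CCNI2, a cyclin-like gene, at 9.69, and XKR7 at 9.51.

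These 15 regions mixed different chromatin. In hypoxia 9 of the 15 overlapped a CTCF peak and 10 an H3K27ac peak, and 3 (ZIC5, SHLD1 and GRIN1) overlapped neither mark in either condition. Over all 1402 WT-only ZHX2 regions at gene starts, 70.9% overlapped hypoxia CTCF and 91.8% hypoxia H3K27ac. At PDE4A the CTCF fold was 242.5 in hypoxia and 319 in normoxia, beside H3K27ac folds of 10.3 and 10.1. INSM1 had CTCF folds of 98.4 in hypoxia and 165.5 in normoxia, and H3K27ac folds of 4.22 and 4.19. A normoxia ZHX2 peak was present at 13 of the 15, all but SHLD1 and CCNI2, with folds such as 32.8 at INSM1 and 20.2 at ZIC5. The 15 were chosen by hypoxia ZHX2 fold, with which the share having a normoxia peak rose. That share was 24.8% of all WT-only ZHX2 regions and 53.8% in the highest of 5 strata of that fold. High folds at these 15 did not go with wide Flag regions, since 14 of the 15 were under 800 bp wide. Folds come from separately made lists and were not tested between conditions.

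**Figure D1:**
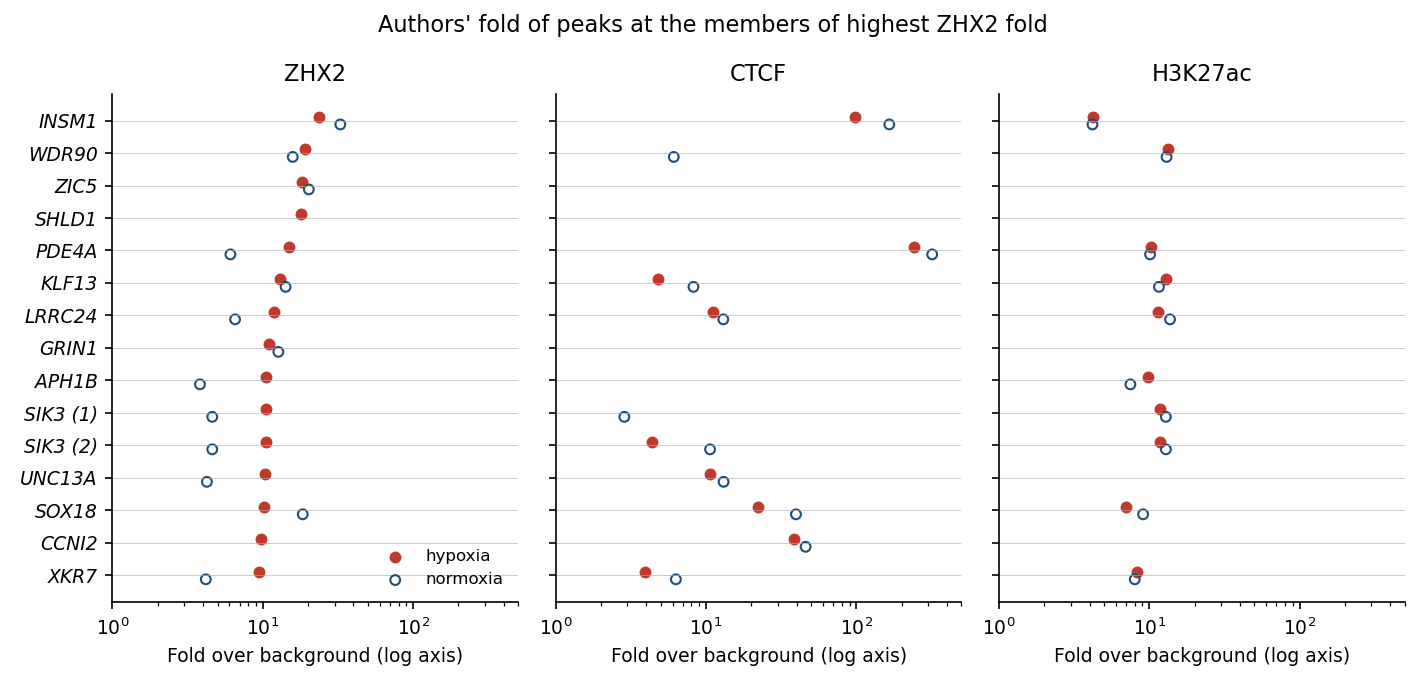
The authors' fold over background (log axis) of peaks overlapping the 15 WT-only ZHX2 regions of highest ZHX2 fold at protein-coding gene starts, with filled points for hypoxia and open points for normoxia. An empty row means no overlapping peak, as for CTCF and H3K27ac at ZIC5, SHLD1 and GRIN1, and SIK3 has 2 regions.

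The widest WT-only ZHX2 regions described here at gene starts had ZHX2 folds between 3.14 and 4.14. The shared start of GEN1, a Holliday junction resolvase, and SMC6, a subunit of the SMC5/6 complex, held a region of 3307 bp with a ZHX2 fold of 4.14, no CTCF peak and an H3K27ac fold of 12.8 in hypoxia against 23.4 in normoxia. SDC1, the proteoglycan syndecan, held 3099 bp (ZHX2 fold 3.90), EDIL3, an extracellular integrin ligand, 2781 bp (4.00), and C16orf74 2770 bp (3.14). The regions of SDC1, EDIL3 and C16orf74 had CTCF peaks in both conditions, and those of SDC1 and C16orf74 had H3K27ac peaks in both. For comparison, the 5 PA-shared ZHX2 regions of highest fold at gene starts had folds of 80.9 (FUZ), 69.1 (MORF4L1), 60.8 (B9D2 and TMEM91), 53.7 (VPS37B) and 48.7 (ENOSF1). Away from gene starts the highest WT-only ZHX2 fold was 29.5, inside PERM1, a regulator of muscle metabolism, with a CTCF fold of 109 in hypoxia and 179 in normoxia.

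The values that chose the regions are given as a description. WT-only ZHX2 regions had a median ZHX2 fold of 3.43 (quartiles 2.85 and 4.24), against 4.01 (3.22 and 5.24) for PA-shared ZHX2 regions. The median overlap with a ZHX2 peak was 284 bp, 127 WT-only ZHX2 regions shared under 50 bp with one, and the least overlap was 1 bp. Just outside the rule, 123 WT-only regions without a ZHX2 overlap had a ZHX2 peak within 50 bp, the nearest at 1 bp. The nearest PA region lay 17345 bp away at the median and 2 bp at the least, and 603 WT-only ZHX2 regions had one within 1 kb. Of the 16115 WT-only regions 21.8% overlapped hypoxia ZHX2, against 69.5% of the PA-shared regions. All 15163 PA-shared regions had exactly the same start and end in both Flag lists.

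WT-only ZHX2 regions were narrow. Their median width was 653 bp (quartiles 418 and 981), against 1855 bp (1317 and 2568) for PA-shared ZHX2 regions. The 12604 WT-only regions without ZHX2 were narrower still, with a median of 397 bp. All PA-shared regions have the same borders in both Flag lists, and how borders were set is not stated. Their width thus cannot be read as the width of WT binding alone, and the strata of width below carry the same limit. A wide region meets a peak of any other list more readily, so the 6 measures tested below are given both as counted and at like width. Shares of combined marks, of peaks called in 1 condition, and of marks at or away from gene starts are given only as counted.

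As counted, CTCF was less frequent at WT-only ZHX2 regions than at PA-shared regions, and more frequent than over all WT Flag regions. In hypoxia 1840 of 3511 overlapped a CTCF peak (52.4%, interval 50.8 to 54.1%), against 76.4% (75.6 to 77.2%) of PA-shared ZHX2 regions and 61.9% of all PA-shared regions, where the share over all WT Flag regions was 42.6%. In normoxia the shares were 56.5%, 77.6% and 63.3%, with 44.3% over all WT Flag regions. Against PA-shared ZHX2 regions the odds ratio was 0.340 in hypoxia (95% interval 0.313 to 0.368; two-sided Fisher exact test, adjusted p = 5.10e-152) and 0.374 in normoxia (0.345 to 0.405; exact test, adjusted p = 1.03e-122). Every p-value was adjusted across the 12 tests (Benjamini-Hochberg). Neighbouring regions are not independent, so these p-values overstate how many separate sites were compared.

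Most of the CTCF difference moved with width. Within 5 strata of Flag width the odds ratio was 0.848 in hypoxia (Mantel-Haenszel, interval 0.764 to 0.942) and 0.873 in normoxia (0.785 to 0.971). Within 20 strata it was 0.924 in hypoxia (0.829 to 1.03) and 0.958 in normoxia (0.858 to 1.07), and neither passed the threshold of 0.05. In the narrowest of the 5 strata, 200 to 781 bp, 44.2% of 2136 WT-only and 49.4% of 672 PA-shared ZHX2 regions had hypoxia CTCF. In the next stratum the shares were 62.0% of 952 and 64.3% of 1851. The widest stratum held only 17 WT-only ZHX2 regions.

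**Figure D2:**
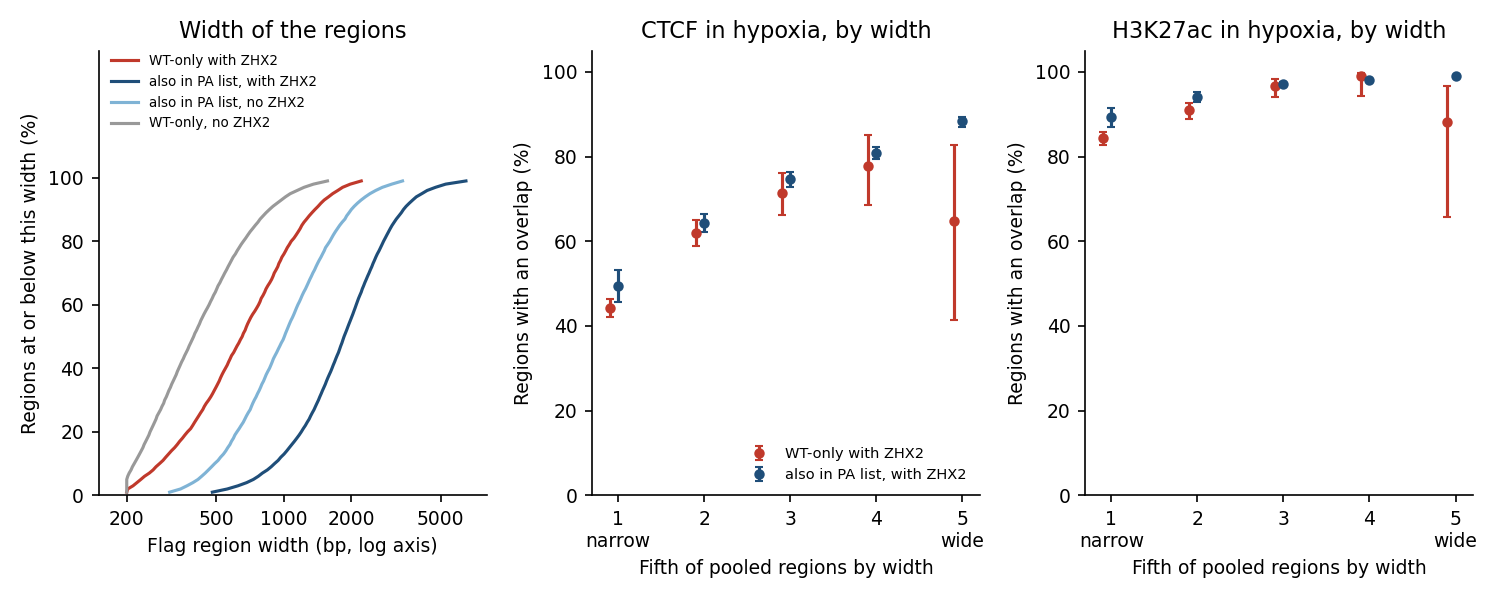
Left, cumulative share of regions by Flag width (log axis) in 4 classes, where WT-only ZHX2 regions had a median of 653 bp and PA-shared ZHX2 regions 1855 bp. Middle and right, percent of WT-only ZHX2 regions and of PA-shared ZHX2 regions with a hypoxia CTCF or H3K27ac peak, by stratum of width. The 5 strata are of equal size over the pooled regions, with 95% Wilson intervals. In the narrowest stratum the shares were 44.2% against 49.4% for CTCF and 84.3% against 89.4% for H3K27ac, and the classes lay closer in the middle strata. The widest stratum, with 64.7% against 88.3% and 88.2% against 99.0%, rests on 17 WT-only ZHX2 regions.

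Against all PA-shared regions, which were not required to overlap ZHX2, the direction turned with width. As counted, the odds ratio for CTCF was 0.679 in hypoxia (Fisher exact test, adjusted p = 2.23e-24) and 0.753 in normoxia (exact test, adjusted p = 1.46e-13). Within 5 strata of width it was 1.91 (1.75 to 2.09) in hypoxia and 2.07 (1.89 to 2.27) in normoxia. Every WT-only ZHX2 region has hypoxia ZHX2 by the rule, whereas 4626 of the PA-shared regions lacked it, and 28.6% of those had hypoxia CTCF. Comparisons with all PA-shared regions thus carry that difference in choice as well, here and for the other measures.

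Where CTCF was present, its peaks ranged widely in height around a middling median. The median CTCF fold in hypoxia was 16.8 (quartiles 5.92 and 128) at WT-only ZHX2 regions, against 12.1 (5.39 and 69.9) at PA-shared ZHX2 regions and 15.8 over all WT Flag regions, and 59.8 at WT-only regions without ZHX2. At WT-only ZHX2 regions the median CTCF peak stood at percentile 47.7 of the hypoxia CTCF list. ZHX2 and CTCF summits lay a median of 161.5 bp apart at WT-only and 258 bp apart at PA-shared ZHX2 regions, and wider regions allow longer distances. CTCF followed gene starts in both classes. At starts 70.9% of WT-only and 83.6% of PA-shared ZHX2 regions had hypoxia CTCF, and away from them 40.1% and 57.1%.

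H3K27ac covered most WT-only ZHX2 regions. In hypoxia 3077 of 3511 overlapped an H3K27ac peak (87.6%, 86.5 to 88.7%), against 96.9% (96.5 to 97.2%) of PA-shared ZHX2 regions and 86.1% of all PA-shared regions, with 72.3% over all WT Flag regions. In normoxia the shares were 85.4%, 96.2% and 84.5%, with 69.8% over all WT Flag regions. The odds ratio against PA-shared ZHX2 regions was 0.229 in hypoxia (0.198 to 0.266; Fisher exact test, adjusted p = 8.98e-83) and 0.232 in normoxia (0.202 to 0.266; exact test, adjusted p = 1.00e-95). Here the difference narrowed but remained past the threshold at like width, with 0.647 in hypoxia and 0.709 in normoxia within 5 strata, and 0.762 (0.626 to 0.928) and 0.815 (0.681 to 0.976) within 20.

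Against all PA-shared regions H3K27ac was slightly more frequent at WT-only ZHX2 regions in hypoxia, with an odds ratio of 1.15 (1.03 to 1.28; Fisher exact test, adjusted p = 0.0165). In normoxia the odds ratio of 1.07 (0.963 to 1.18) did not pass the threshold (exact test, adjusted p = 0.222). Within 5 strata of width these values were 3.54 and 3.43. At gene starts alone they fell below 1, to 0.372 in hypoxia and 0.361 in normoxia. The median H3K27ac fold in hypoxia was 11.4 (quartiles 7.14 and 16.4) at WT-only against 14.3 (10.4 and 18.6) at PA-shared ZHX2 regions.

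Read together in hypoxia, 1650 of the 3511 WT-only ZHX2 regions held CTCF and H3K27ac, 1427 (40.6%) H3K27ac alone, 190 (5.41%) CTCF alone and 244 (6.95%) neither. Among PA-shared ZHX2 regions 75.1% held both, 21.8% H3K27ac alone, 1.36% CTCF alone and 1.78% neither.

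**Figure D3:**
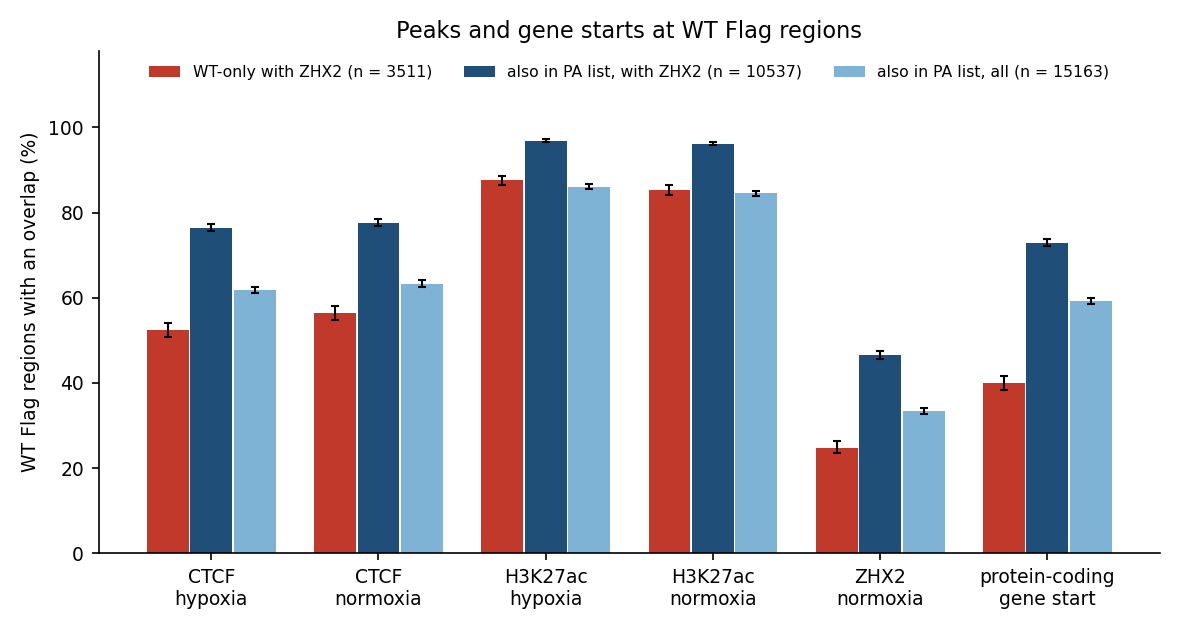
Percent of WT Flag regions with each kind of overlap, for WT-only ZHX2 regions (n = 3511), PA-shared ZHX2 regions (n = 10537) and all PA-shared regions (n = 15163), with 95% Wilson intervals. WT-only ZHX2 regions are lowest in 4 of the 6 measures; for H3K27ac they lie beside all PA-shared regions, at 87.6% in hypoxia and 85.4% in normoxia.

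Few WT-only ZHX2 regions changed state between hypoxia and normoxia. CTCF was called in both conditions at 1741 (49.6%), in hypoxia alone at 99 (2.82%, 2.32 to 3.42%), in normoxia alone at 242 (6.89%, 6.10 to 7.78%) and in neither at 1429. In PA-shared ZHX2 regions 427 (4.05%) had CTCF in hypoxia alone and 554 (5.26%) in normoxia alone. Over all WT Flag regions the shares were 2.55% in hypoxia alone and 4.201% in normoxia alone, so the hypoxia-alone share of WT-only ZHX2 regions lay near that background. Some of these regions only touched a peak that was itself called in both conditions. Counting only peaks with no counterpart in the other list left 70 WT-only ZHX2 regions with CTCF in hypoxia alone (1.99%) and 201 in normoxia alone (5.73%), against 3.90% and 5.03% of PA-shared ZHX2 regions. Over the whole CTCF lists, 6.96% of hypoxia peaks and 17.7% of normoxia peaks had no counterpart, as shares of peaks and not of regions.

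Normoxia-only CTCF calls at starts were led by FGF11, a fibroblast growth factor homologue, with a CTCF fold of 484, MYO5B, an unconventional myosin, with 324, LYST, a lysosomal trafficking regulator, with 52.9, SCRT1, a zinc finger repressor, with 41.4 and KRT7, a simple epithelial keratin, with 34.5. None of these was among the peaks without a counterpart, which were led by ARHGEF18 (fold 15.2), CDK16 (8.72) and TTBK2 (8.32). Hypoxia-only CTCF calls were led by ZFTRAF1 (90.0), SPTBN4 (78.9), GNAS (15.9), GRIK3 (12.8) and GNAI2 (10.9). Of these only GNAI2, a G protein subunit, had no counterpart, followed by TRAF3IP1 (5.87) and SYT7 (5.71), the last 2 named after their values were seen, as were ARHGEF18, CDK16 and TTBK2.

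H3K27ac was called in both conditions at 2963 WT-only ZHX2 regions (84.4%), in hypoxia alone at 114 (3.25%) and in normoxia alone at 34 (0.968%), against 0.949% and 0.256% of PA-shared ZHX2 regions. Over all WT Flag regions these shares were 3.71% in hypoxia alone and 1.18% in normoxia alone, slightly above those of WT-only ZHX2 regions. With no counterpart at all, 78 WT-only ZHX2 regions (2.22%) were hypoxia-only and 20 (0.570%) normoxia-only, against 0.797% and 0.247% of PA-shared ZHX2 regions. Over the whole H3K27ac lists, 19.4% of hypoxia peaks and 10.9% of normoxia peaks had no counterpart. The hypoxia-only calls included PEAK1, a kinase-like scaffold, with an H3K27ac fold of 19.7, in a peak that met a normoxia peak outside the region. They also included SMAD9, a transducer of BMP signals, with 4.72 and no counterpart. The normoxia-only calls included WRAP73 (11.2, with a counterpart), SYN1, a synaptic vesicle protein (5.82), FCRLB (3.57), and the shared start of LIPJ and RNLS (3.46), the last 3 with none.

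**Figure D4:**
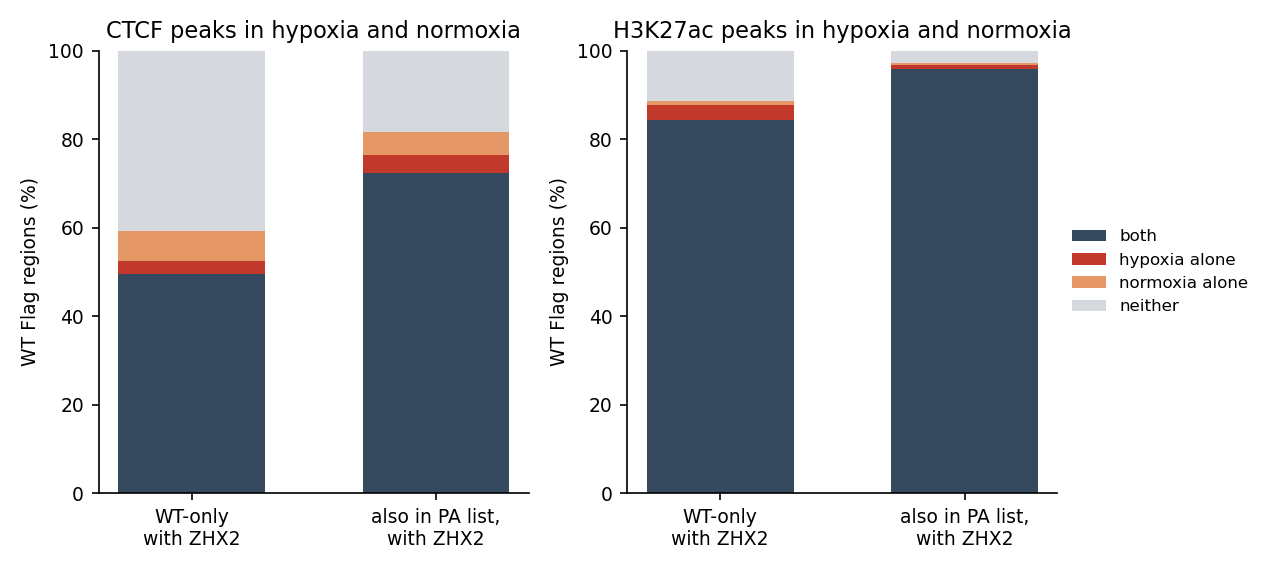
Percent of WT-only ZHX2 regions (left bar of each panel) and of PA-shared ZHX2 regions (right bar) by whether a CTCF or an H3K27ac peak overlapped in both conditions, in hypoxia alone, in normoxia alone or in neither. The large step is in the regions with neither, 40.7% against 18.3% for CTCF and 11.4% against 2.88% for H3K27ac.

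Endogenous ZHX2 was not called in normoxia at most WT-only ZHX2 regions, nor at most PA-shared ZHX2 regions. The normoxia ZHX2 list was the smaller, with 14586 peaks against 32343 in hypoxia. A normoxia ZHX2 peak overlapped 871 of 3511 (24.8%, 23.4 to 26.3%), against 46.5% of PA-shared ZHX2 regions and 33.3% of all PA-shared regions, with 19.5% over all WT Flag regions. The odds ratio against PA-shared ZHX2 regions was 0.380 (0.349 to 0.414; Fisher exact test, adjusted p = 2.15e-117), and 0.743 within 5 and 0.768 within 20 strata of width. Against all PA-shared regions it was 0.660 (exact test, adjusted p = 4.59e-23) and turned to 1.73 within 5 strata of width. The share followed the strength of the hypoxia peak. It was 14.9% of WT-only and 22.3% of PA-shared ZHX2 regions in the lowest of 5 strata of hypoxia ZHX2 fold, and 53.8% and 78.1% in the highest. Within strata of that fold the odds ratio was 0.509 (0.465 to 0.557).

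WT-only ZHX2 regions lay away from gene starts more often than PA-shared ZHX2 regions, with a share at starts near that of all WT Flag regions. Regions without hypoxia ZHX2 were at a start less often, 28.0% of those in the PA list and 12.8% of the WT-only ones. A start was counted within 1 kb of a listed start, or of either annotated end for genes without a listed strand. Of the 3511, 1402 (39.9%, 38.3 to 41.6%) were at a protein-coding start, 972 (27.7%) were elsewhere inside a gene and 1137 (32.4%) were outside genes. The corresponding shares of PA-shared ZHX2 regions were 73.0%, 12.7% and 14.4%, and 38.4% of all WT Flag regions were at a start. The odds ratio for a start was 0.246 (0.227 to 0.267; Fisher exact test, adjusted p = 2.05e-265) against PA-shared ZHX2 regions, and 0.722 within 5 and 0.820 within 20 strata of width. Against all PA-shared regions it was 0.457 (exact test, adjusted p = 8.62e-95), and 1.47 within 5 strata of width.

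By gene, 1407 of 19974 protein-coding genes (7.04%) had a WT-only ZHX2 region at a start. Of these, 1054 (74.9% of the 1407, 5.28% of all genes) had no PA-shared region there, and 353 had one as well. A PA-shared region stood at a start of 9895 genes (49.5%). In the gene lists below, WT-only ZHX2 regions were read against the 7.04% and PA-shared regions against the 49.5%. Neither was tested.

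Hypoxia-induced genes mostly had a PA-shared region, as did the genes of most other lists. Of 36, 32 had one at a start, and 5 had a WT-only ZHX2 region: BNIP3, a mitophagy receptor, HK2, a hexokinase, PGK1, the phosphoglycerate kinase of glycolysis, KDM4B, a histone demethylase, and ZNF395. BNIP3, KDM4B and ZNF395 had no PA-shared region at a start. At BNIP3 the ZHX2 fold was 4.30, the CTCF fold 6.76 in hypoxia and 22.9 in normoxia, and the H3K27ac fold 9.66 in hypoxia and 8.35 in normoxia. KDM4B held 2 WT-only ZHX2 regions at its start, touched by ZHX2 of fold 4.49, with weak CTCF in hypoxia (3.68 and 3.82) and no CTCF in normoxia. The region at PGK1 had a ZHX2 fold of 3.55, no CTCF, and H3K27ac folds of 19.7 in hypoxia and 13.1 in normoxia. HK2 and PGK1 were also the 2 of 17 glycolysis genes with such a region.

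The gene of the HIF-2 alpha subunit, EPAS1, was the 1 of 13 genes in the list of HIF pathway and ZHX genes with a WT-only ZHX2 region (chr2:46296857-46297955), and it had no PA-shared region at a start. ZHX2 there had a fold of 4.16 in hypoxia and no peak in normoxia, CTCF had 11.1 in hypoxia and 23.6 in normoxia, and H3K27ac 19.9 and 16.6. The starts of HIF1A, VHL, ZHX2, CTCF, VEGFA, SLC2A1, NDRG1, ESR1, GATA3, MYC and CCND1 held PA-shared regions and no WT-only ZHX2 region, and the start of CA9 held only a WT-only region without ZHX2. SLC2A1, the glucose transporter, and ESR1, the oestrogen receptor, each had 1 WT-only ZHX2 region inside the gene, with ZHX2 folds of 3.55 and 3.06.

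Among 28 genes of invasion and matrix 4 had a WT-only ZHX2 region, and all 4 lacked a PA-shared region: LAMB1, a laminin chain (ZHX2 fold 7.38), SNAI1, a repressor of E-cadherin (2.63), ITGA5, the fibronectin receptor subunit (2.62), and FN1, fibronectin (2.56). SNAI1 alone of these had CTCF, with folds of 128.5 in hypoxia and 138 in normoxia. Oxidative phosphorylation had 3 of 23, the complex I subunit NDUFB8, the complex II subunit SDHA and the ATP synthase subunit ATP5PO. These 3 also had no PA-shared region at a start. Of all genes with a WT-only ZHX2 region at a start, 74.9% had no PA-shared region there. Counts of 4 and 3 do not set these lists apart from that share. The SDHA region also lay at the start of CCDC127 and had a CTCF fold of 137 in hypoxia and 109 in normoxia.

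The other lists had few members. Luminal identity had 2 of 20, GREB1, an oestrogen receptor target (ZHX2 fold 5.22), and the keratin KRT8 (3.54), and chromatin looping had 1 of 17, the adaptor LDB1. The NF-kappaB pathway had 1 of 20, the inhibitor NFKBIE (7.85), the cell cycle 1 of 26, CDK6 (3.83), and basal or myoepithelial markers 1 of 11, CDH3 (2.00). Immune and stromal markers had 0 of 16. With lists of 11 to 36 genes and a background of 7.04%, counts of 0 to 5 carry little precision.

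Some genes held several WT-only ZHX2 regions. At or inside 76 genes there were 3 or more. GNG7, a G protein gamma subunit, had 9, beside 3 PA-shared regions, and all 9 lay inside the gene under H3K27ac of fold 15.5 to 18.5 in hypoxia. GSE1, a corepressor subunit, had 8 beside 25 PA-shared regions, and KDM4B and SPRED2, an inhibitor of RAS signalling, had 5 each.

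The protocadherin alpha cluster on chromosome 5, whose alternative first exons encode neuronal adhesion proteins and are known for CTCF at their promoters, held 6 WT-only ZHX2 regions, 0 PA-shared ZHX2 regions, 1 PA-shared region without ZHX2 and 1 WT-only region without ZHX2. The same 6 regions count for each overlapping transcription unit of the cluster. CTCF in hypoxia lay at 5 of the 6, with folds of 159 at PCDHA5, 140 at PCDHA11, 53.8 at PCDHA13 and 3.02 at PCDHAC2. The remaining region with CTCF, beside PCDHA11, carried the same fold of 140, so these regions may rest on fewer peaks. The CTCF peak at PCDHAC2 stood at percentile 0.927 of the hypoxia CTCF list. The ZHX2 folds were low, 2.25 at PCDHA5 and 3.23 at PCDHAC2.

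On 22 of the 23 chromosomes between 7.56% (X) and 14.1% (chromosome 11) of WT Flag regions were WT-only ZHX2 regions, and on chromosome 21 the share was 21.2%. There 50 of 108 WT-only ZHX2 regions lay between positions 8203923 and 8988394, on 22 ZHX2 peaks. Of these, 33 were on the ribosomal RNA units RNA45SN1 (9), RNA45SN2 (13) and RNA45SN3 (11), which encode the precursor of the large ribosomal RNAs in near-identical copies, where PA-shared regions numbered 0. In that stretch 44 of the 50 overlapped hypoxia CTCF, 6 hypoxia H3K27ac and 45 normoxia ZHX2. Reads from such copies cannot be placed uniquely, and their handling is not stated in the labels or files; its part in this result was not tested. The rest of the chromosome had 13.2%. Another 1-Mb stretch held 25 WT-only ZHX2 regions. Over all chromosomes the median gap between neighbouring WT-only ZHX2 regions was 218237.5 bp, and 455 of 3488 neighbouring pairs lay within 10 kb. Of the WT-only ZHX2 regions, 1351 (38.5%) had a PA-shared region within 10 kb.

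**Figure D5:**
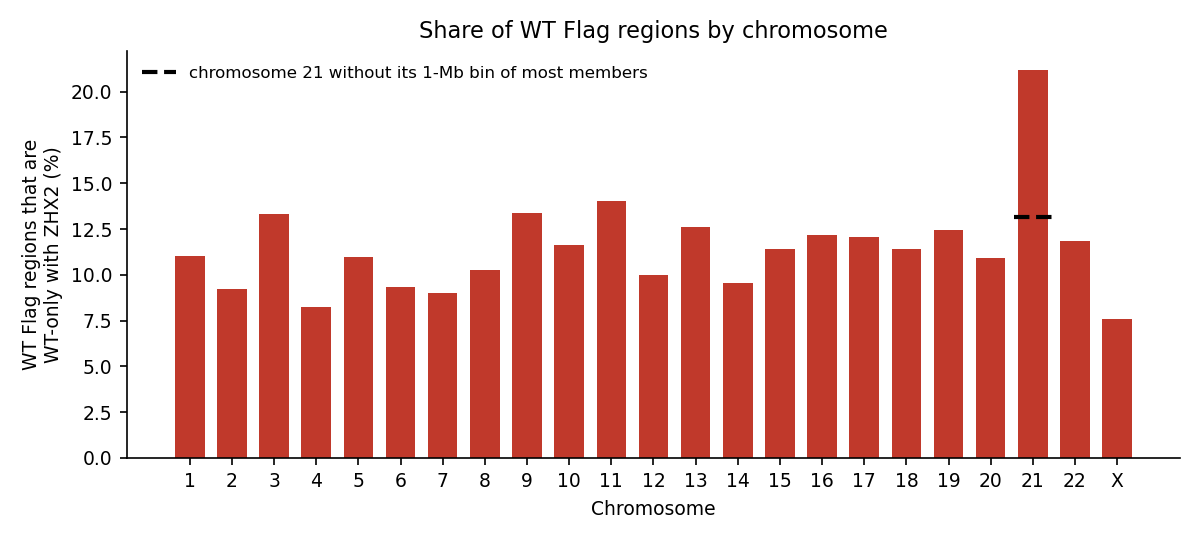
Percent of WT Flag regions on each chromosome that were WT-only ZHX2 regions. Chromosome 21 stands at 21.2%, and the dashed line marks 13.2% there without the 1-Mb bin that holds ribosomal RNA units.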

How the data were processed

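The 28 samples were grouped by titles and antibody labels: 16 in 8 immunoprecipitated groups of 2, and 12 without antibody, of which 4 are titled Flag and were kept apart. For each immunoprecipitated group 1 list of peaks was deposited. The tools were cutadapt, Bowtie2 and MACS2 on GRCh38 (hg38), per the submitters' processing notes. Read depth, use of inputs and pooling of samples are not stated in the labels, and the precision of single peaks is thus unknown. The fold enrichment (a ratio over background), the −log10 q, and the score, which was 10 times the −log10 q without decimals, are the authors' deposited values. Flag lists hold positions alone.

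Regions on chromosomes 1 to 22 and X sharing 1 bp were called overlapping. The regions and gene lists were chosen with earlier results of these data known. The 6 measures that the choice did not use were compared with 2 classes by 12 two-sided Fisher exact tests with Benjamini-Hochberg adjustment, and by Mantel-Haenszel odds ratios within strata. Computation used Python 3.11.15, numpy 2.4.6, pandas 2.3.3, scipy 1.17.1 and statsmodels 0.14.6, and the steps were checked on simulated data. Gene positions, starts and promoter sequences came from RefSeq tables of GRCh38.p14, in which 15813 of 19974 protein-coding genes had a strand. No genome or exon annotation was used. Named at gene starts were the 15 WT-only ZHX2 regions of highest ZHX2 fold, the 5 widest (1 of them is not reported here), the 5 PA-shared ZHX2 regions of highest fold, up to 4 regions per list, up to 5 per class of CTCF or H3K27ac in 1 condition, up to 10 genes with 3 or more regions, and a set of 14 hypoxia, ZHX and luminal genes (EPAS1, PGK1, CA9, HIF1A, VHL, CTCF, ZHX2, SLC2A1, VEGFA, NDRG1, GATA3, ESR1, CCND1 and MYC). PERM1, SPRED2, and peaks named as having no counterpart were added after their values were seen. Alternatives covered the overlap, the lists' upper 50%, −log10 q, merging, contigs, 200 bp cores, windows and strata.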

Additional observations from a re-analysis of the deposited data

How the results depend on the processing

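No paired analysis was possible because each group has 1 list and no replicate values. Against PA-shared ZHX2 regions all 6 odds ratios stayed below 1 under every alternative, and the 2 for CTCF no longer passed the threshold within 20 strata of width (0.924 in hypoxia, 0.958 in normoxia). Against all PA-shared regions, calls or directions depended on the setting, mainly on width. Within 5 and 20 strata of width the odds ratios were 1.91 and 2.05 for hypoxia CTCF, 2.07 and 2.23 for normoxia CTCF, 3.43 and 3.78 for normoxia H3K27ac, 1.73 and 1.79 for normoxia ZHX2 and 1.47 and 1.58 for gene starts. With summits or midpoints within 250 bp there were 2315 WT-only ZHX2 regions, and the odds ratios were 1.37 and 1.50 for CTCF in hypoxia and normoxia, 1.20 for normoxia ZHX2 and 1.11 for hypoxia H3K27ac, the last not past the threshold. With 200 bp around Flag midpoints they were 0.993 for hypoxia CTCF, 1.14 for normoxia CTCF and 0.958 for normoxia ZHX2. With the upper 50% of the lists they were 0.944 and 0.953 for CTCF and 0.983 and 0.905 for H3K27ac, in hypoxia and normoxia. Away from gene starts they were 1.18 and 1.25 for CTCF in hypoxia and normoxia, 2.20 for normoxia H3K27ac and 1.25 for normoxia ZHX2, and at gene starts 0.372 and 0.361 for H3K27ac. Hypoxia H3K27ac gave 1.08 with an overlap of 50% of the shorter region and 1.11 with no PA region within 1 kb, neither past the threshold. Normoxia H3K27ac passed the threshold without the densest bin of chromosome 21 (1.16) and with the ZHX2 summit inside the Flag region (1.16). Apart from width strata and their own construction, the cause of these shifts was not tested. The number of WT-only ZHX2 regions was 2646 to 3512 in the other alternatives. The 20 strata, position, summit, gene-start reference and chromosome 21 settings were chosen after seeing the data. Of 178 recomputed values, 145 kept their direction and side of the threshold. Depth and replicate spread are unknown, so a region missing from a list is not shown to be unbound.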

Other observations

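Small RNA genes other than the ribosomal units were rarely under WT-only ZHX2 regions. Transfer RNA genes lay under 16 WT-only ZHX2 regions (0.456%) and under 98 PA-shared ZHX2 regions (0.930%). Small nucleolar RNA genes lay under 2 (0.0570%) and 37 (0.351%), and microRNA genes under 14 (0.399%) and 149 (1.41%). Small nuclear RNA genes lay under 7 (0.199%) and 40 (0.380%). These shares were not tested, and PA-shared ZHX2 regions were wider.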
